A study of Mus musculus with 12 samples.

Results

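The H3K4me3 peaks of 9 genes were examined in adult mouse cardiomyocytes (CMs) with and without *Cpt1b*: *Cs*, *Aco1*, *Suclg1*, *Suclg2*, *Sucla2*, *Fh1*, *Mdh1*, *Mdh2* and *Pcx*, which encode enzymes that make or use citrate, succinyl-CoA, fumarate, malate and oxaloacetate. Every peak carrying one of these gene names in the deposited table was taken. Each gene had a single peak, so the members were 9 of 15848 union peaks, the regions obtained by merging the peaks of all libraries. Peaks were selected by gene name, without a threshold on a measured value.

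H3K4me3, histone H3 trimethylated at lysine 4, was mapped by ChIP–seq (sequencing of chromatin pulled down with an antibody to the mark) in CM nuclei sorted from adult mouse ventricles by their PCM1 protein. There were 3 libraries from CtrlCre mice (αMHC-Cre pos/+; *Cpt1b* +/+) and 3 from Cpt1bcKO mice (αMHC-Cre pos/+; *Cpt1b* fl/fl). Both genotypes therefore carried the Cre recombinase under the αMHC promoter, which is active in CMs from before birth, and only the Cpt1bcKO mice carried the floxed *Cpt1b* alleles, whose loss removes muscle carnitine palmitoyltransferase, needed to bring long-chain fatty acids into mitochondria for oxidation. No treatment was given, and the labels give no age in weeks and do not tie a library to a mouse, so p-values measure the spread between libraries. The question put to these libraries was where H3K4me3 differs between *Cpt1b*-deficient and control CMs.

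The Krebs cycle is a ring of mitochondrial reactions that oxidizes acetyl-CoA, from fatty acids or from pyruvate, and passes the electrons to the respiratory chain, and the heart depends on it for nearly all of its ATP. Citrate synthase opens the ring, and the succinyl-CoA, fumarate and malate enzymes close it by turning the product of α-ketoglutarate oxidation back into oxaloacetate. α-Ketoglutarate is a co-substrate of the histone demethylases that remove methyl groups from lysine 4 of histone H3, whereas succinate and fumarate can inhibit enzymes of that class. H3K4me3 itself marks the start of active and poised genes, and is often spread into the gene body at genes that characterize a cell type.

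Counts falling in peaks ranged from 763133 (CtrlCre replicate 2) to 2766416 (Cpt1bcKO replicate 2), a 3.63-fold range, and the members held between 37 and 816 counts in a library. Counting error alone was therefore as high as 16.4% (*Suclg2* in CtrlCre replicate 2) and as low as 3.5% (*Mdh1* in Cpt1bcKO replicate 2). The 8 CM markers examined all had a peak, with a summed level of 6710 to 8246 normalized counts in CtrlCre and 4988 to 7330 in Cpt1bcKO libraries. Of the markers of other heart cells, 1 of 5 endothelial genes had a peak (*Kdr*, 39 to 91 and 31 to 51 normalized counts), as did 1 of 5 fibroblast genes (*Pdgfra*, 58 to 69 and 56 to 63), 0 of 4 immune genes and 2 of 4 mural genes. Those mural peaks, at *Acta2* and *Cspg4*, summed to 113 to 203 normalized counts in CtrlCre and 26 to 65 in Cpt1bcKO libraries, so this pair was lower in every Cpt1bcKO library; its part in the values below was not tested. In pooled nuclei, fewer cells with a mark and less mark per cell cannot be told apart.

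All 9 member peaks covered the deposited start of their gene (mouse build GRCm38), from which the reach of peaks is counted below. The GENCODE extent of *Sucla2* begins further upstream and held its whole peak. *Cs*, citrate synthase (ENSMUSG00000005683), had its peak at chr10:128337189-128340672. *Pcx*, pyruvate carboxylase, which makes oxaloacetate from pyruvate (ENSMUSG00000024892), had its peak at chr19:4509703-4511310. *Aco1*, the cytosolic aconitase that also binds iron-responsive elements in RNA when it lacks its iron–sulfur cluster (ENSMUSG00000028405), had its peak at chr4:40142550-40144498. For succinyl-CoA ligase, the peak of the shared α subunit *Suclg1* (ENSMUSG00000052738) lay at chr6:73247868-73250324. The GTP-forming β subunit *Suclg2* (ENSMUSG00000061838) was marked at chr6:95718031-95719273, and the ATP-forming β subunit *Sucla2* (ENSMUSG00000022110) at chr14:73552426-73554033. *Fh1*, fumarase (ENSMUSG00000026526), was marked at chr1:175624194-175626131. Cytosolic malate dehydrogenase *Mdh1* (ENSMUSG00000020321) had its peak at chr11:21564357-21572845, and mitochondrial *Mdh2* (ENSMUSG00000019179) at chr5:135777617-135781176.

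The DNA around the RefSeq starts held more CpG than the median mouse promoter. Windows of 300 bases, reaching from 250 bases before to 50 after the RefSeq start, were taken from RefSeq (GRCm38.p6), and 9 windows, 1 for each gene, lay inside the member peaks. RefSeq starts can differ from the deposited starts used for the reach of peaks. At *Mdh1* the RefSeq start, chr11:21571934, lay downstream of the deposited start, chr11:21572193, which its window did not include. A second RefSeq start of *Pcx*, at chr19:4594319, overlapped no peak. The 9 windows in peaks held 13 to 27 CpG dinucleotides, against a median of 7 over 32851 mouse promoter windows of the same length. This placed them between percentile 62.1 (*Suclg2*) and percentile 84.5 (*Mdh2*) of promoter windows. Those 32851 windows were not limited to promoters with a peak. Over whole peaks, only 2 of the 9 members exceeded the median CpG density of tested peaks, 48.6 per kb. Shown here are the windows of the enzyme pairs that are compared within libraries further on, the β subunits of succinyl-CoA ligase and the malate dehydrogenases, and that of *Suclg1*, which stood apart in its motifs. The *Suclg2* window is chr6:95718797-95719096, minus strand, that of *Sucla2* is chr14:73552536-73552835, plus strand, that of *Suclg1* is chr6:73248255-73248554, plus strand, that of *Mdh1* is chr11:21571885-21572184, minus strand and that of *Mdh2* is chr5:135778399-135778698, plus strand. Sequences run 5′ to 3′ on the strand of the gene, and capitals mark matches to the Sp motif GGGCGG or its reverse complement and, in *Mdh2*, the cyclic AMP response element (CRE) TGACGTCA.
Suclg2: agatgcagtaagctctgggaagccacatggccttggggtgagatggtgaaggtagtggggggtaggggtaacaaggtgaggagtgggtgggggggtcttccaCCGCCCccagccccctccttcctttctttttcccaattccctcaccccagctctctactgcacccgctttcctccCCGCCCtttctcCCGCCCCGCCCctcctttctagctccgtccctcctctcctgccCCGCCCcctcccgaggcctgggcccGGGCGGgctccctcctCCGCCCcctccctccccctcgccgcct
Sucla2: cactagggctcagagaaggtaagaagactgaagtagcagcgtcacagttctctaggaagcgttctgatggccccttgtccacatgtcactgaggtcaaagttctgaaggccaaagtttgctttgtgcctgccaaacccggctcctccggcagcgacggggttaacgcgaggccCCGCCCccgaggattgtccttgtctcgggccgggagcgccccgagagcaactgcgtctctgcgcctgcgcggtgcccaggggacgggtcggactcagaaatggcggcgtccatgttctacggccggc
Suclg1: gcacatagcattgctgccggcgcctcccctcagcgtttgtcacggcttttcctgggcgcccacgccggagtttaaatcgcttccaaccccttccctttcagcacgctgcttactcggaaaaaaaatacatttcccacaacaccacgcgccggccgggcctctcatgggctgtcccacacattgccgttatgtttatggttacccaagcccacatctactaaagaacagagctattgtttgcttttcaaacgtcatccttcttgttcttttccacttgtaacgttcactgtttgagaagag
Mdh1: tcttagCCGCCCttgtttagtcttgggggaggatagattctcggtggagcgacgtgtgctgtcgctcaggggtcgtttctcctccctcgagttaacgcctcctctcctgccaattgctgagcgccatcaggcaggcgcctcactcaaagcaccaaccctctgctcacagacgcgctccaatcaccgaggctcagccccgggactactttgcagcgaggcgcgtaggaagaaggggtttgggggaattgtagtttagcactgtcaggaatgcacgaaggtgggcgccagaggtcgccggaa
Mdh2: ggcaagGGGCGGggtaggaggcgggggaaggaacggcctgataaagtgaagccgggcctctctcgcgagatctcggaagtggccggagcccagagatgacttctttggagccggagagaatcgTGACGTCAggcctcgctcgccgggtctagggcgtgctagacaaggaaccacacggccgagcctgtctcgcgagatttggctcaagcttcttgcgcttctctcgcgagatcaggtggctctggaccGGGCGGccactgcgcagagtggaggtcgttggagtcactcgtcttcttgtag

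The Sp motif was present in 8 of the 9 windows inside member peaks, and in 35.7% of all promoter windows, with or without a peak. *Suclg2* held 7 matches, of which 1 neighbouring pair overlapped, whereas *Sucla2* and *Mdh1* held 1 each and *Suclg1* held 0. The palindromic CRE was found only in *Mdh2*, at position 124 of the 300 bases, and in 1.79% of all windows. On both strands, 0 member windows matched the NRF1 core CGCATGCG (1.87% of all windows), the ETS motif CCGGAAGT (3.89%), the ERR motif TNAAGGTCA (1.28%), the YY1 motif AAGATGGCG (1.4%) or TATAAA (13.6%). These matches describe letters in a window, and binding was not measured.

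The members differed most in how far the mark reached. *Mdh1* had an 8488-base peak, at percentile 99.4 of the widths of tested peaks, which ran from 652 bases before to 7836 bases after the start and covered exons 1 to 3 of 9 and 51.4% of the gene. Only 92 of the 15039 tested peaks were wider. *Mdh2* followed with 3559 bases (percentile 91.6, 22.6% of the gene), then *Cs* with 3483 bases (percentile 91.2, 11.9%) and *Suclg1* with 2456 bases (percentile 79.7, 6.81%). These 4 were broad by the percentile that the study used, widths above the 75th, which over tested union peaks meant over 2222 bases. The study ranked genes by peak breadth in CtrlCre CMs, so its cutoff in bases can differ. The remaining 5 were of medium width, from 1242 bases at *Suclg2* to 1948 at *Aco1*, and covered between 0.313% (*Suclg2*) and 5.71% (*Fh1*) of their gene. Apart from *Mdh1*, each peak included exon 1 as the only exon of its gene. Between 45.3% (*Pcx*) and 85.5% (*Sucla2*) of their bases lay within the GENCODE extent of the gene but outside exons of coding transcripts. At *Sucla2* that extent takes in the 239 bases of the peak before the deposited start.

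In all 9 peaks the mark extended further downstream of the deposited start than upstream of it. The summit lay downstream of that start by 129 bases (*Pcx*) to 592 bases (*Mdh1*), with a median of 470. Among 11331 tested peaks with a named gene, 83.3% reached further downstream than upstream, and the median summit lay 221 bases past the start. CpG density fell downstream of the start in each member. Within 500 bases of the start it was between 52.9 per kb (*Aco1*) and 85.1 per kb (*Sucla2*). In the part of the peak more than 500 bases downstream it was between 6.97 per kb (*Cs*) and 44.4 per kb (*Pcx*, over 338 bases). Peak bases more than 500 upstream of the start were in neither part. Examples were *Sucla2*, at 85.1 against 9.22 per kb, *Cs*, at 65.9 against 6.97 per kb, and *Mdh1*, at 54.9 against 9.13 per kb over 7336 bases. As a whole, the *Mdh1* peak had 14.8 CpG per kb, at percentile 5.02, compared with a median of 42.3 per kb for broad and 51.9 for medium tested peaks.

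**Figure D1:**
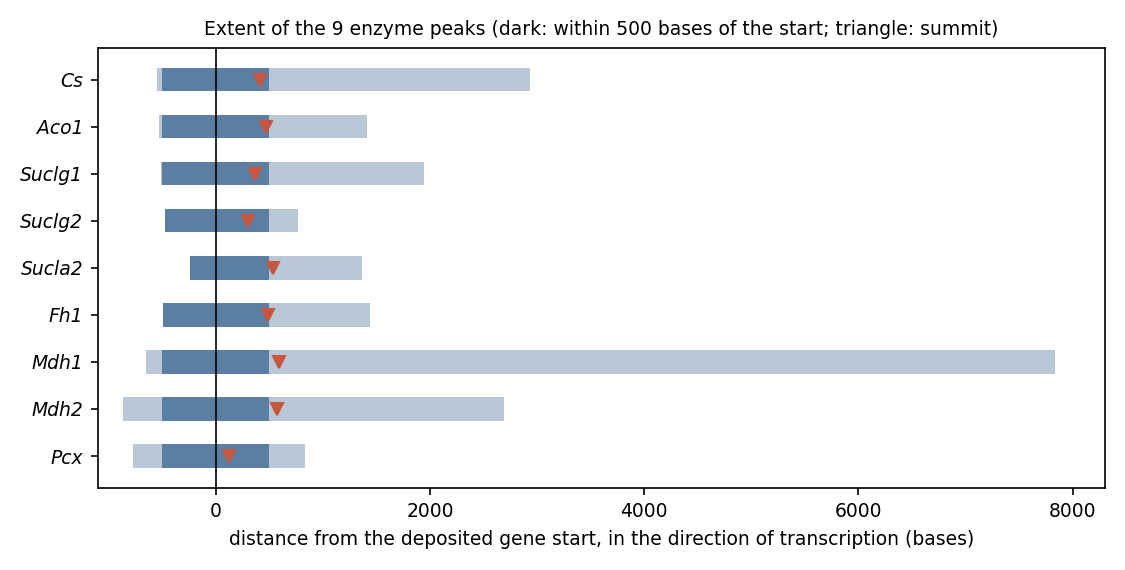
Extent of the 9 member peaks in bases from the start of the gene as the deposited table gives it, drawn in the direction of transcription; dark bars mark the stretch within 500 bases of the start and triangles the summit. All 9 summits lie downstream of the start, and the *Mdh1* peak runs 7836 bases into the gene.

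Both malate dehydrogenase peaks contained the start of a second, divergent gene. *Wdpcp*, a planar cell polarity and ciliogenesis gene, starts 42 bases from *Mdh1*, and *Styxl1* starts 95 bases from *Mdh2*, so H3K4me3 upstream of these starts cannot be assigned to either gene. The *Fh1* peak overlapped *Kmo* on the other strand but contained no *Kmo* start. A further peak with no assigned gene lay inside the GENCODE extent of *Sucla2* but upstream of its deposited start, at chr14:73524609-73525548. It had a mean of 46.7 normalized counts and a log2 difference between genotypes of 0.22 (limma, adjusted p = 0.748). Inside *Pcx* lay the peak of *Lrfn4* (chr19:4614612-4616260), with a log2 difference of −0.23 (limma, adjusted p = 0.621).

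Levels were high relative to other peaks, with the mean over the 6 libraries above the median tested peak (102 normalized counts) for 8 of 9 members. The exception was *Suclg2*, at percentile 46.6, while *Mdh1* was at percentile 99.2 and *Mdh2* at 96.6. Levels of different genes were compared per kb of peak, since wide peaks collect more counts, and the order then changed. In CtrlCre libraries *Sucla2* was densest, at 132 normalized counts per kb, followed by *Fh1* at 106, *Aco1* at 88.1, *Mdh2* at 86.0, *Pcx* at 82.3, *Cs* at 79.0, *Suclg1* at 77.5, *Suclg2* at 73.3 and *Mdh1* at 60.5. Among neighbours in this order, the ranges of the 3 CtrlCre libraries separated only *Sucla2* (121 to 147) from *Fh1* (95 to 112) and *Suclg2* (69.2 to 78.9) from *Mdh1* (57.5 to 62.9). The other 6 neighbouring pairs overlapped. Over the 6 libraries the density at *Mdh1* was at percentile 46.7 of tested peaks, while its total was at percentile 99.2. In Cpt1bcKO libraries the first 4 places were held by the same genes in the same order, from *Sucla2* at 123 to *Mdh2* at 94.8 normalized counts per kb, and *Mdh1* was again last at 53.6.

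**Figure D2:**
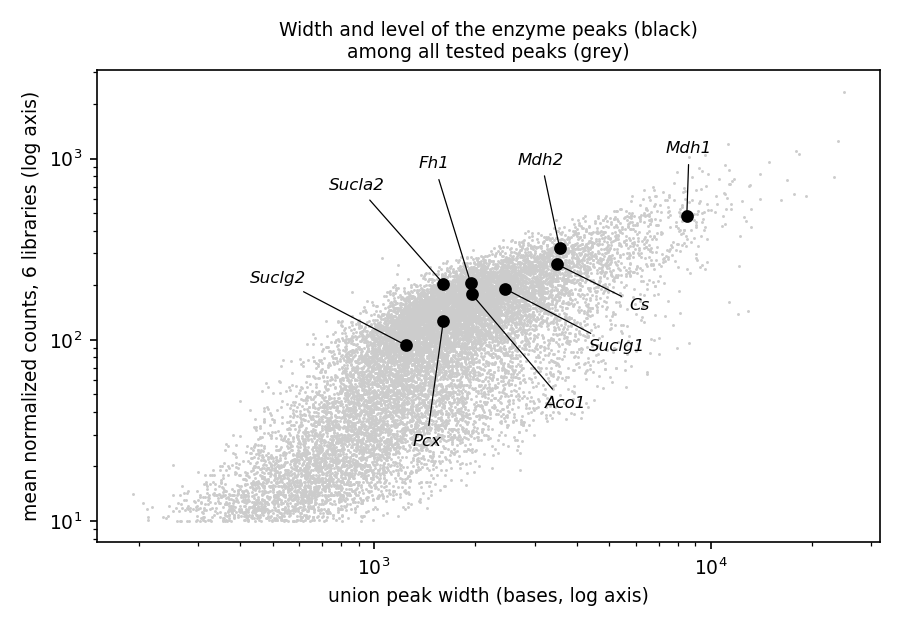
Mean normalized counts over the 6 libraries against union peak width in bases, both on log axes, for all 15039 tested peaks (grey) and the 9 members (black). *Mdh1* is the widest and highest member, and *Suclg2*, at 1242 bases, is the narrowest and lowest.

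Between the genotypes, H3K4me3 at these 9 genes showed no difference that passed the test. The largest, at *Mdh1*, was a log2 difference of −0.18. Of the 9 members, 0 had an adjusted p under 0.05 (limma), compared with 2.93% of all tested peaks, 441 of 15039, of which 167 were higher and 274 lower in Cpt1bcKO. At an unadjusted p under 0.05 the count was also 0 of 9, against 12.8% of tested peaks. That count became 1 without CtrlCre replicate 2 (*Cs*, log2 difference −0.25), without Cpt1bcKO replicate 2 (*Mdh1*, −0.30) or under quantile normalization (*Mdh1*, −0.18). The genotypes were free of overlap, with 3 libraries of one all above 3 of the other, at 0 of 9 members and at 16.3% of tested peaks. On whole counts recovered from the table, limma-voom called 0 members by adjusted and 0 by unadjusted p, and 3.34% of tested peaks by adjusted p. Of the 3757 broad peaks 7.16% were called (94 higher and 175 lower), and of the 4 broad members 0. With so few members, a count of 0 is close to what these backgrounds give, and says little about the members as a group.

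At the entry of the ring, *Cs* measured 296, 232 and 297 normalized counts in CtrlCre replicates 1 to 3, and 228, 280 and 241 in Cpt1bcKO replicates 1 to 3. Its means were 275 ± 37.2 and 250 ± 27.1 (SD, n = 3 each), and the log2 difference was −0.14 with a standard error (SE) of 0.11 (limma, adjusted p = 0.697). CtrlCre replicate 2 lay among the Cpt1bcKO values, so the genotypes overlapped. *Pcx*, which refills the ring with oxaloacetate, measured 123, 142 and 132 in CtrlCre and 113, 131 and 124 in Cpt1bcKO libraries. Means were 132 ± 9.5 and 123 ± 9.07 (SD, n = 3 each), with a log2 difference of −0.11, SE 0.12 (limma, adjusted p = 0.793). The lowest and highest libraries were of different genotypes, but 2 of the 3 Cpt1bcKO values lay within the CtrlCre range. For both genes the 95% interval of the log2 difference spanned 0, from −0.37 to 0.10 for *Cs* and from −0.36 to 0.14 for *Pcx*.

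*Aco1*, the cytosolic route from citrate to isocitrate, measured 194, 165 and 156 normalized counts in CtrlCre and 197, 164 and 200 in Cpt1bcKO libraries. Its log2 difference was 0.12, SE 0.11 (limma, adjusted p = 0.74). Cpt1bcKO replicates 1 and 3 were above every CtrlCre library, while Cpt1bcKO replicate 2 was below 2 of them.

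The subunits of succinyl-CoA ligase, which splits succinyl-CoA and forms GTP or ATP, overlapped between the genotypes at each gene. The shared subunit *Suclg1* measured 200, 193 and 178 normalized counts in CtrlCre and 188, 218 and 169 in Cpt1bcKO libraries, with a log2 difference of 0.0039, SE 0.11 (limma, adjusted p = 0.996). *Suclg2* measured 98, 86 and 89 in CtrlCre and 105, 74 and 109 in Cpt1bcKO libraries, with a log2 difference of 0.058, SE 0.16 (limma, adjusted p = 0.939). In both genes the Cpt1bcKO values enclosed all CtrlCre values, and the spread of *Suclg2* was 6.24 (SD) in CtrlCre and 19.2 in Cpt1bcKO libraries. *Sucla2* measured 236, 207 and 194 in CtrlCre and 232, 173 and 186 in Cpt1bcKO libraries, with a log2 difference of −0.11, SE 0.12 (limma, adjusted p = 0.769). Here Cpt1bcKO replicates 2 and 3 fell below every CtrlCre library and replicate 1 did not.

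*Fh1*, which hydrates fumarate to malate, measured 216, 184 and 215 normalized counts in CtrlCre and 233, 185 and 203 in Cpt1bcKO libraries. Means were 205 ± 18.2 and 207 ± 24.2 (SD, n = 3 each), a log2 difference of 0.011, SE 0.11 (limma, adjusted p = 0.986). Replicate 2 was the lowest library in both genotypes.

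The 2 malate dehydrogenases, which work on either side of the mitochondrial membrane in the malate–aspartate shuttle, had the lowest p-values of the members. *Mdh1* measured 518, 488 and 534 normalized counts in CtrlCre and 441, 530 and 395 in Cpt1bcKO libraries. Means were 513 ± 23.4 and 455 ± 68.6 (SD, n = 3 each), and the log2 difference was −0.18, SE 0.11, with a 95% interval from −0.40 to 0.04 (limma, adjusted p = 0.512). Cpt1bcKO replicates 1 and 3 were below all CtrlCre libraries, but replicate 2 was the second highest of the 6. *Mdh2* measured 277, 307 and 334 in CtrlCre and 315, 358 and 339 in Cpt1bcKO libraries. Means were 306 ± 28.5 and 337 ± 21.5 (SD, n = 3 each), with a log2 difference of 0.14, SE 0.10, and a 95% interval from −0.06 to 0.35 (limma, adjusted p = 0.613). Cpt1bcKO replicates 2 and 3 exceeded every CtrlCre library, and replicate 1 lay between them.

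**Figure D3:**
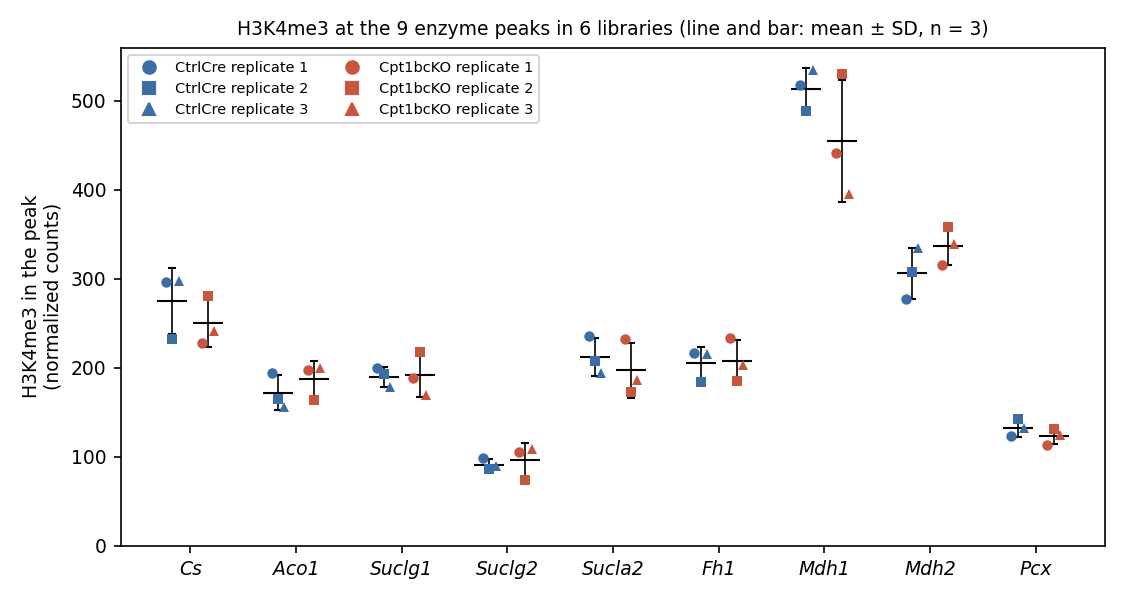
Normalized H3K4me3 counts of the 9 member peaks in each of the 6 libraries, with CtrlCre in blue and Cpt1bcKO in red; marker shapes give the replicate, horizontal lines the mean and bars the SD (n = 3 libraries). The genotypes overlap at all 9 genes, and at *Mdh1* the Cpt1bcKO values spread from 395 to 530.

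Across the list, 5 log2 differences were above 0 and 4 below, with a median of 0.0039 against 0.0057 over all tested peaks. The median absolute log2 difference was 0.11 for the members, 0.14 for all tested peaks and 0.095 for the 8142 tested peaks whose mean lay between 90 and 500 normalized counts. The median SE was 0.11 for the members and 0.15 for all tested peaks. The 95% intervals of the 9 members lay between a ratio of 0.756, the lower end for *Mdh1*, and 1.3, the upper end for *Suclg2*. Ratios beyond these bounds lay outside the interval of every member. Smaller differences may have gone undetected with 3 libraries a genotype, and the smallest detectable difference was not worked out. Because the values were scaled to size factors, a change shared by all peaks would not be seen.

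**Figure D4:**
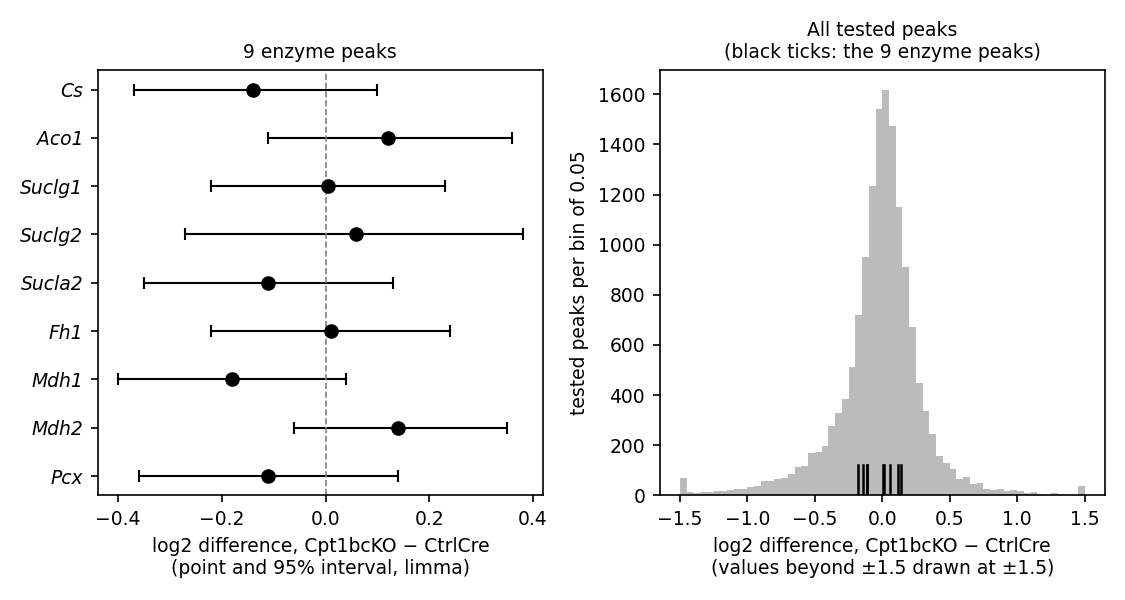
Left, log2 difference (Cpt1bcKO minus CtrlCre, log2 of normalized counts + 1) with its 95% limma interval for each member; right, histogram of the same difference over all 15039 tested peaks with the members as black ticks. All 9 intervals include 0, and the ticks sit between −0.18 and 0.14.

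Ratios within a library set partner enzymes side by side and do not depend on the size factor, apart from the pseudocount of 1. The log2 ratio of *Suclg2* over *Sucla2* was −1.26, −1.26 and −1.12 in CtrlCre and −1.14, −1.21 and −0.77 in Cpt1bcKO libraries. Means were −1.21 ± 0.08 and −1.04 ± 0.24 (SD, n = 3 each), and the difference of 0.17 had an exact two-sided permutation p = 0.3 (adjusted over the 2 ratios, 0.3). As totals, the ratio was 0.432 in CtrlCre and 0.487 in Cpt1bcKO, and the genotypes overlapped. Per kb of peak it was 0.559 and 0.63, so the GTP-forming subunit was marked below the ATP-forming one in all 6 libraries on both scales.

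The log2 ratio of *Mdh1* over *Mdh2* was 0.90, 0.67 and 0.68 in CtrlCre and 0.48, 0.56 and 0.22 in Cpt1bcKO libraries. All 3 Cpt1bcKO libraries were below all 3 CtrlCre libraries. Means were 0.75 ± 0.13 and 0.42 ± 0.18 (SD, n = 3 each), and the difference was −0.32. As totals the ratios were 1.68 and 1.34, whereas per kb of peak they were 0.704 and 0.562, below 1 in all 6 libraries, and the difference between genotypes is the same on both scales. The exact two-sided permutation test gave p = 0.1 (adjusted over the 2 ratios, 0.2), which is the smallest p that this test can give with 3 libraries against 3, so the test could not fall below 0.05. Both peaks contain a divergent start, and the parts of *Wdpcp* and *Styxl1* in the ratio were not tested.

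**Figure D5:**
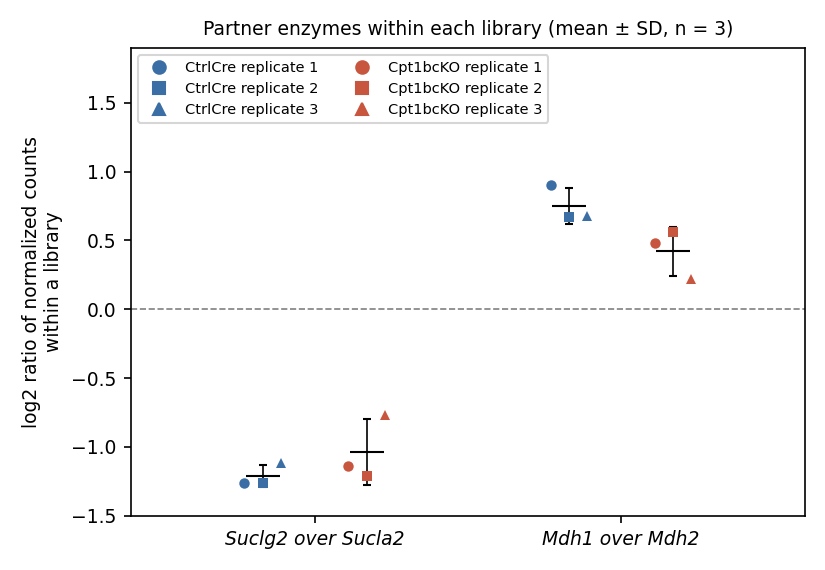
Log2 ratio of the normalized counts of partner enzymes within each library (points; shapes give the replicate), with the mean and SD of each genotype (n = 3). The *Mdh1* over *Mdh2* ratio runs from 0.67 to 0.90 in CtrlCre and from 0.22 to 0.56 in Cpt1bcKO libraries, while the *Suclg2* over *Sucla2* ratios overlap.

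Relative to the mean of the 6 libraries on the log2 scale, Cpt1bcKO replicate 2, the deepest library, averaged 0.15 higher at the 4 broad members and 0.16 lower at the 5 medium ones (−0.16). The other Cpt1bcKO libraries showed the opposite, with −0.091 at broad and 0.1 at medium members for replicate 1, and −0.12 and 0.043 for replicate 3. The CtrlCre libraries lay between −0.048 and 0.075 at broad and between −0.04 and 0.088 at medium members. Over all tested peaks of a class the median deviation of Cpt1bcKO replicate 2 was 0.019 for broad and 0.0059 for medium peaks. This split by width was noticed after the values had been seen, and the part of depth in it was not tested.

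The rest of the pathway was followed with 53 symbols of enzymes, assembly factors and carriers around the Krebs cycle, of which 49 had a peak and were tested. Of these peaks, 1 was higher in Cpt1bcKO (2.04% of the list, against 1.11% of all tested peaks called higher), 0 were lower and 48 did not pass (limma, adjusted p under 0.05). The median log2 difference was 0.026, with 27 above 0 and 22 below. In 6 of 49, or 12.2%, the genotypes did not overlap, 5 higher and 1 lower in Cpt1bcKO, against the 16.3% of all tested peaks.

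The peak with more H3K4me3 was that of *Pdk4*, whose product is a kinase that inhibits pyruvate dehydrogenase. In the paper, PDK4 expression did not increase in *Cpt1b*-deficient CMs, and neither RNA nor protein was measured here. The peak measured 239, 300 and 305 normalized counts in CtrlCre and 499, 548 and 314 in Cpt1bcKO libraries. The log2 difference was 0.66, SE 0.15 (limma, adjusted p = 0.0121). Cpt1bcKO replicate 3 stood just above the highest CtrlCre library and the other Cpt1bcKO replicates far above it. The call was lost without CtrlCre replicate 1 (0.54, adjusted p = 0.125), Cpt1bcKO replicate 1 (0.57, adjusted p = 0.116) or Cpt1bcKO replicate 2 (0.50, adjusted p = 0.11) in limma.

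At an unadjusted p under 0.05 there were 3 genes of 49, against 12.8% of all tested peaks (limma). Of these 3 genes, *Pdk4* and *Idh2* are described here. *Glud1* and *Sdhaf3* were not among them and are named for having the next smallest p. *Idh2*, *Glud1* and *Sdhaf3* were not called. *Idh2*, mitochondrial NADP-dependent isocitrate dehydrogenase, had means of 313 and 270 and a log2 difference of −0.21 (limma, adjusted p = 0.382). *Glud1*, which links glutamate to α-ketoglutarate, had means of 211 and 241 and a log2 difference of 0.19 (limma, adjusted p = 0.411). *Sdhaf3*, an assembly factor of succinate dehydrogenase, had means of 119 and 146 and a log2 difference of 0.35 (limma, adjusted p = 0.436). At *Glud1* all Cpt1bcKO libraries lay above all CtrlCre libraries, whereas at *Idh2* and *Sdhaf3* the genotypes overlapped.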

How the data were processed

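The authors trimmed reads with Trimmomatic 0.39, aligned them to mm10 (GRCm38) with STAR 2.6.1d and removed duplicates with Picard 2.21.7. The authors called peaks per library against its input, merged them into 15848 union peaks and assigned nearby genes. The authors divided the count of each library by DESeq2 1.26.0 size factors, and the deposited value is the result rounded to a whole number, treated here as a score. The deposited genotype means are unrounded and were used as a signal to recover whole counts, with a single solution for 15848 of 15848 peaks (largest gap, 1.34e-06). Deposited fold changes and p-values of the comparison by the authors were not used.

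Peaks with a mean of at least 10 were tested (15039; 809 left out) with limma 3.58.1 (R 4.3.3; lmFit and eBayes with trend, log2(value + 1), genotype only, two-sided, Benjamini–Hochberg over all tested peaks). The + 1 understates changes of low peaks. Exact permutation tests (scipy 1.17.1) compared the ratios. Scripts were tested on simulated data. Floors of 3 counts correspond to 1.95 to 6.97 normalized counts, and counting errors cover counting only. Exons came from GENCODE for GRCm38, promoter windows from RefSeq. Of the pathway list, every gene passing and the smallest p up to 5 genes were named. Of the genes so chosen, 1 is not reported here. The members and lists were chosen with earlier results of these data known. The 6 input libraries were not analysed here.

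Replicate numbers are shared between genotypes. Deviations of same-numbered libraries correlated at 0.076, −0.081 and 0.11 across peaks, so they were not treated as pairs. Alternatives were other pseudocounts, filters, normalizations, weights, the replicate block, limma-voom and leaving out each library.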

Additional observations from a re-analysis of the deposited data

How the results depend on the processing

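Under the main setting and all 14 alternatives, 0 of the 9 members had an adjusted p under 0.05 (limma; limma-voom on recovered counts for 1 of them). *Cs*, *Aco1*, *Sucla2*, *Mdh1*, *Mdh2* and *Pcx* kept the sign of their log2 difference in all 14 alternatives, and 12 of the 126 member values changed sign, all at members near 0. *Suclg1* went to −0.018 under quantile normalization, to −0.0055 under median centring and ranged from −0.092 to 0.09 with a library left out. *Suclg2* went to −0.014 under limma-voom and ranged from −0.043 to 0.23 with a library left out. *Fh1* went to −0.0014 under quantile normalization, −0.0044 with array weights, −0.043 under limma-voom and ranged from −0.077 to 0.089 with a library left out. At an unadjusted p under 0.05 there were 0 members in the main setting and 1 in each of 3 alternatives: *Cs* without CtrlCre replicate 2, and *Mdh1* under quantile normalization and without Cpt1bcKO replicate 2. The smallest p of any member was at *Mdh1* without Cpt1bcKO replicate 2 (log2 difference −0.30, limma adjusted p = 0.186), and the cause was not tested.

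Over all tested peaks, 441 were called, and between 229 and 431 with a library left out: 229 without CtrlCre replicate 1, 288 without Cpt1bcKO replicate 2 and 246 without Cpt1bcKO replicate 3. In the alternatives that kept every library, between 338 (mean of at least 50) and 600 (array weights) were called. With the replicate block 370 peaks were called, and of the members 0. The *Mdh1* over *Mdh2* difference was −0.32 with a pseudocount of 10 and with the replicate block, and −0.40 to −0.22 with a library left out. Leaving out a library could not change its sign, since all 3 Cpt1bcKO ratios lay below all 3 CtrlCre ratios. The exact permutation p was 0.25 with the block and 0.2 with any library left out. Each is the smallest p that its test can give with so few libraries, so the larger values do not show a weaker difference. The *Suclg2* over *Sucla2* difference was 0.16 with a pseudocount of 10 and 0.17 with the block. With a library left out it ranged from 0.036 (without Cpt1bcKO replicate 3) to 0.26 (without Cpt1bcKO replicate 2). Other alternatives were not run for the ratios. At CtrlCre replicate 2, the shallowest library, counting error at *Suclg2* was 16.4%.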
